A study of Drosophila melanogaster with 3 samples.

Results

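The mir-2/13 family of Drosophila melanogaster was followed in small RNA from whole heads of adult males. The 10 genes taken by name were mir-2a-1, mir-2a-2, mir-2b-1, mir-2b-2, mir-2c, mir-13a, mir-13b-1, mir-13b-2, mir-11 and mir-308, out of 262 microRNA genes and 3546 noncoding genes in the authors' deposited table. Of the 10 genes, 9 had reads and 8 had an adjusted p-value. In the Sxl-RAC flies tub-GAL80ts and nSyb-GAL4 were combined with UAS-SxlRAC, so that neurons made Sxl-RAC, a version of the RNA-binding protein Sex-lethal. In the control flies nSyb-GAL4 drove UAS-mCherry from the attP2 site. The labels name tub-GAL80ts, a temperature-sensitive repressor of GAL4, in the Sxl-RAC cross and do not spell out whether the control carried it. Flies grew at 18 °C and spent 4 days at 29 °C after eclosion. Only Sxl-RAC samples, 3 in number, are listed in the labels. Control libraries were seen through the authors' comparison, which held 3 libraries of each arm.

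The microRNAs of this family carry the same or nearly the same seed, the short stretch near the 5′ end through which a microRNA finds its target mRNAs. That seed pairs with the K box, a motif first described in the 3′ untranslated regions of Notch target genes of the fly. Members of the family are known to repress pro-apoptotic genes of the fly such as reaper, grim and sickle, and mir-11 is known to limit the cell death that the transcription factor E2F1 can trigger through reaper and hid. The names miR-2a, miR-2b and miR-13b each stand for 1 mature microRNA made from 2 loci, so reads of the mature strand can be assigned to either locus. How the authors treated such reads is not given in the sources used here. The values of the single loci of a pair are uncertain for that reason. Their sum does not depend on how reads were divided between the loci. It would still be affected if shared reads were left out or counted at both loci. The nSyb-GAL4 driver acts in neurons, whereas whole heads also hold glia, muscle, fat body and epithelium. In such bulk RNA, fewer cells of a type and less RNA per cell cannot be told apart.

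No member of the family passed the authors' test, which 26.9% of the 67 microRNAs with an adjusted p passed. All 8 members with an adjusted p had values above 0 in the authors' deposited table, with log2 fold changes (Sxl-RAC over control) of 0.11 to 0.31. Of the 67 microRNAs, 37 were above 0. The 8 members are loci, some of which share a mature product, so they are not 8 separate observations. In the authors' deposited table the most abundant member, mir-11, was at 8.14% above control, with a 95% interval of -1.71% to 19.0%. Its log2 fold change of 0.11 became 0.026 when values were re-centred on the summed counts of all microRNAs, which removed 0.09 from every value. The lowest p-value belonged to mir-13b-2, whose log2 fold change was 0.21 (adjusted p 0.180, DESeq2's Wald test, authors' deposited table).

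The family was dominated by mir-11, which lies in an intron of E2f1, the gene of the cell-cycle transcription factor E2F1. It spans 21622497 to 21622571 on the minus strand of chromosome 3R in build BDGP6.54, on the strand of its host. Its mean count in the authors' deposited table, that is reads divided by a size factor for depth and averaged over all libraries, was 10773, rank 9 among microRNAs. That was 85.0% of the counts of the family, and the whole family held 2.84% of all microRNA counts. Per base of annotated hairpin, the scale on which levels of different genes are set side by side here, mir-11 averaged 143.6 counts.

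The miR-13b loci came next on that scale. The gene mir-13b-1 (chromosome 3R, 15417408 to 15417475, minus strand) averaged 8.80 counts per base, and mir-13b-2 (chromosome X, 9091230 to 9091299, plus strand), in an intron of the chaperonin subunit gene CCT2 on its strand, averaged 8.25. The miR-2b loci followed. A level of 3.07 counts per base was found for mir-2b-1 (chromosome 2L, 8258616 to 8258692, minus strand), which overlaps an exon and the 3′ untranslated region of the tyrosine kinase gene Btk. The level of mir-2b-2 (chromosome 2L, 19570182 to 19570264, minus strand) was 2.91. It shares an intron of spi, the gene of the epidermal growth factor receptor ligand Spitz, with mir-2a-1 (19569897 to 19569972), at 1.17 counts per base, and mir-2a-2 (19569490 to 19569561), at 1.32. The least abundant members with reads were mir-13a (chromosome 3R, 15417542 to 15417616, minus strand), at 0.688, and mir-2c (15417744 to 15417845), at 0.141.

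Neighbours in this order did not all differ beyond the spread between libraries. Reads per library could be recovered for 6 of the loci. Per base, mir-2a-2 was above mir-2a-1 in 4 of 6 libraries and their ranges overlapped (1.10 to 1.90 and 0.900 to 1.33 normalised reads per base). The miR-2b loci also overlapped, at 2.76 to 3.31 for mir-2b-1 and 2.61 to 3.27 for mir-2b-2, although mir-2b-1 was the higher in all 6. That order comes from the shorter hairpin of mir-2b-1, since by reads alone mir-2b-1 was below mir-2b-2 in 5 of 6 libraries. The highest library of mir-13a, 0.876, stayed below the lowest of mir-2a-1, and the highest of mir-2c, 0.265, stayed below the lowest of mir-13a, 0.583. For mir-13b-1 and mir-13b-2 the spread between libraries is not known.

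**Figure D1:**
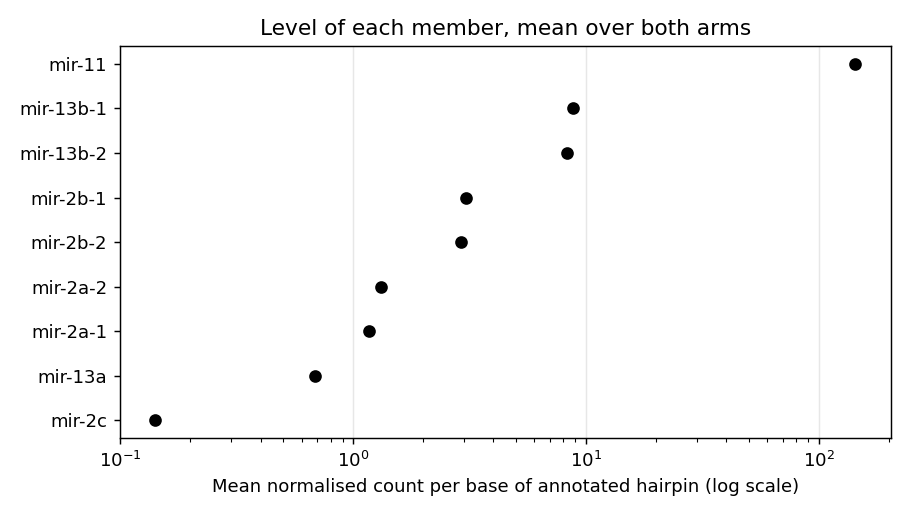
Mean normalised count per base of annotated hairpin (horizontal log axis) for the 9 family members with reads, averaged over Sxl-RAC and control libraries, with no error bar because the authors' table gives only the mean. The point of mir-11 at 143.6 stands far right of mir-13b-1 at 8.80, and mir-308, at 0 counts, cannot be drawn on a log axis.

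The remaining member, mir-308, is listed at 0. It lies in an intron of the ribosomal protein gene RpS23 (chromosome 2R, 14215802 to 14215864, minus strand). A mean of 0 means that none of the 6 libraries held a read assigned to it. An expected count of up to about 3 reads over all libraries can still give 0. That limit is a mean normalised count of 0.648 if all 3 reads are placed in the library with the smallest size factor. It was not alone in this, since 94 of the 262 microRNA genes were at 0.

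The table gives no column per library, but the reads of 6 members in each library could be recovered, a step added after the data were seen. In a mean normalised count every whole read adds an amount that is set by the depth of its library. The mean counts of rare microRNAs gave those amounts for 6 libraries, and the deposited mean count, log2 fold change and standard error of a gene then singled out its reads. Libraries A, B and C are the Sxl-RAC libraries and D, E and F the controls, each lettered from the largest size factor to the smallest. The letters are names made here: they tie no library to a listed sample and pair none. The size factors were 0.998, 0.976 and 0.776 in the Sxl-RAC libraries and 1.83, 0.936 and 0.772 in the controls.

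The miR-2a loci differed from each other in which libraries stood high. For mir-2a-1, Sxl-RAC libraries A, B and C held 91, 94 and 74 reads, or 91.2, 96.3 and 95.3 after division by the size factor, and control libraries D, E and F held 147, 64 and 78 reads, or 80.4, 68.4 and 101.0. Control library F was above every Sxl-RAC library, so the arms overlapped. For mir-2a-2, Sxl-RAC libraries held 82, 95 and 106 reads, normalised to 82.2, 97.4 and 136.6, and control libraries held 157, 83 and 61, normalised to 85.9, 88.7 and 79.0. Library C stood highest and library A lay among the controls. In the authors' deposited table the log2 fold change was 0.19 for mir-2a-1 (standard error, SE, 0.24; DESeq2 adjusted p 0.644) and 0.31 for mir-2a-2 (SE 0.24, DESeq2 adjusted p 0.381).

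Summed over both loci, the miR-2a product averaged 199.7 ± 29.7 normalised reads in Sxl-RAC heads and 167.8 ± 11.6 in control heads (SD, n = 3 each). Single libraries lay at 173.4, 193.7 and 231.9 in Sxl-RAC heads and at 166.3, 157.1 and 180.0 in control heads. Library A fell below control library F, so the arms overlapped. The log2 ratio of the means was 0.25, and a two-sided exact permutation test over libraries gave p = 0.2, or 0.4 after Benjamini-Hochberg adjustment over the 4 mature products tested. With 3 libraries against 3 the smallest p this exact test can give is 0.1. Without library C the ratio was 0.13.

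The miR-2b loci, far apart on chromosome 2L, gave similar values. For mir-2b-1 the normalised reads were 251.6, 255.2 and 239.7 in Sxl-RAC libraries A to C and 212.2, 215.8 and 242.2 in control libraries D to F. For mir-2b-2 they were 246.6, 271.6 and 242.2 in the Sxl-RAC libraries and 227.5, 216.9 and 243.5 in the control libraries. At both loci control library F lay above Sxl-RAC library C, and the arms overlapped by that pair. The miR-2b product, the sum of both, averaged 502.3 ± 22.7 in Sxl-RAC heads and 452.7 ± 28.8 in control heads (SD, n = 3 each). Its log2 ratio was 0.15, with p = 0.2 by the two-sided exact permutation test and 0.4 after adjustment over the 4 products. In the authors' deposited table the log2 fold change was 0.16 for mir-2b-1 (SE 0.15, DESeq2 adjusted p 0.474) and 0.15 for mir-2b-2 (SE 0.15, DESeq2 adjusted p 0.519).

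Within a library the 2 products kept a narrow ratio in 5 of 6 cases. The miR-2b product had 2.87, 2.72 and 2.08 times the reads of the miR-2a product in Sxl-RAC libraries A, B and C, and 2.64, 2.76 and 2.70 times in control libraries D, E and F. Library C stood apart, and the other 5 lay between 2.64 and 2.87.

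The rarer members were the least certain. For mir-13a, Sxl-RAC libraries held 47, 50 and 51 reads, normalised to 47.1, 51.2 and 65.7, and control libraries held 80, 48 and 39, normalised to 43.8, 51.3 and 50.5. Library C was again the highest, and the other Sxl-RAC libraries lay among the controls. The means were 54.7 ± 9.77 in Sxl-RAC heads and 48.5 ± 4.14 in control heads (SD, n = 3 each), a log2 ratio of 0.17 that was 0.02 without library C (two-sided exact permutation p = 0.5, adjusted 0.667). For mir-2c, Sxl-RAC libraries held 7, 9 and 21 reads and control libraries 28, 10 and 13. Normalised, these were 7.02, 9.22 and 27.1 in Sxl-RAC heads, against 15.3, 10.7 and 16.8 in control heads. Libraries A and B were the lowest of all 6 and library C the highest. The log2 ratio of means was 0.02 (two-sided exact permutation p = 1), while the authors' deposited table gave -0.01 (SE 0.62), and without library C the ratio was -0.81. No direction can be given for mir-2c.

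**Figure D2:**
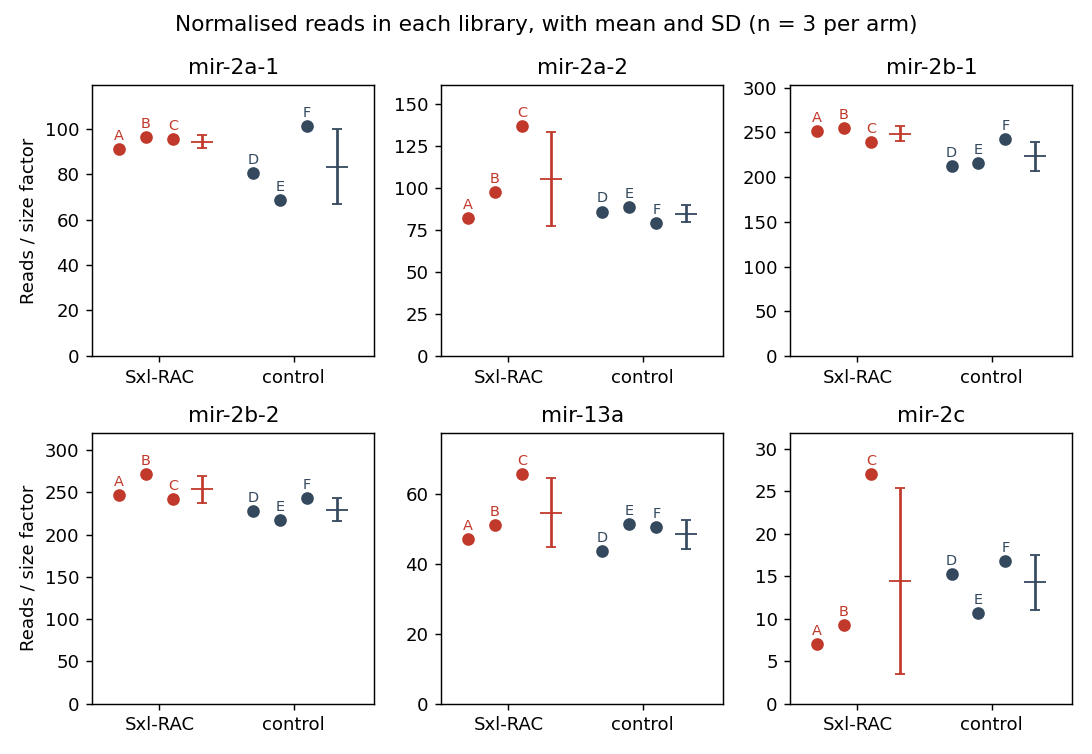
Normalised reads (reads divided by the size factor, vertical axes starting at 0) in Sxl-RAC libraries A to C and control libraries D to F for the 6 family members whose reads could be recovered, with the mean and SD of each arm (n = 3). On these size factors the arms overlap in all 6 panels, and library C is the highest point for mir-2a-2 (136.6), mir-13a (65.7) and mir-2c (27.1).

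Added over these 6 loci, the Sxl-RAC libraries reached 725.6, 780.9 and 806.6 normalised reads and the control libraries 665.1, 651.8 and 733.1. Library A lay just under control library F, and this sum again left the arms overlapping. The means were 771.0 ± 41.4 in Sxl-RAC heads and 683.3 ± 43.6 in control heads (SD, n = 3 each), and the two-sided exact permutation test gave p = 0.2.

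The overlap of the arms depended on the scale. On the authors' size factors the arms overlapped for all 4 products. Scaled by the summed reads of the 55 recovered microRNAs with mean counts of 2.2 to 100, an alternative added after the data were seen, the log2 ratio was 0.48 for miR-2a, 0.38 for miR-2b and 0.40 for miR-13a. The arms of these 3 products then did not overlap, each with an unadjusted p = 0.1 by the two-sided exact permutation test, the smallest it can give. That sum includes the miR-2a, miR-2c and miR-13a reads themselves and mir-986, which held 0.0680 to 0.271% of it in Sxl-RAC libraries and 8.92 to 14.1% in control libraries. Without mir-986 in the sum the ratios were 0.31 for miR-2a, 0.21 for miR-2b and 0.23 for miR-13a, and the arms stayed apart for miR-2b (exact permutation p = 0.1) and overlapped for the other 2. For miR-2c the arms overlapped on all 3 scales. The divisor of a library is the same for every gene, and the added scales raised the ratios of all 4 products. How many of the other recovered microRNAs had separate arms on these scales was not counted. The separation is therefore not read as a trait of the family.

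The abundant members could be described only by arm means. These follow, with arms of equal size, from the mean count and log2 fold change of the authors' deposited table. For the 6 recovered members, means obtained in this way lay within 1.02% of those from the reads. By the authors' deposited table, the mean of mir-11 was 11194 in Sxl-RAC heads and 10351 in control heads, a log2 fold change of 0.11 (SE 0.07, DESeq2 adjusted p 0.269). The means of mir-13b-1 were 625.0 in Sxl-RAC heads and 572.3 in control heads, at a log2 fold change of 0.13 (SE 0.11, DESeq2 adjusted p 0.443). For mir-13b-2 they were 618.5 in Sxl-RAC heads and 536.2 in control heads, at a log2 fold change of 0.21 (SE 0.11). The interval of mir-13b-2 ran from -0.01 to 0.42, and its unadjusted p was 0.0619 by DESeq2's Wald test. The miR-13b product, summed over its loci, had a mean of 1244 in Sxl-RAC heads and 1108 in control heads, a log2 ratio of 0.17.

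The calls were then read against those among all microRNAs. Of the 8 members with an adjusted p, 0 passed 0.05 in the authors' deposited table, where 26.9% of the 67 microRNAs with an adjusted p did so (18 genes). By the unadjusted DESeq2 p under 0.05 the count was also 0 of 8, against 31.3% of the 67 microRNAs. The median log2 fold change was 0.17 over the 8 members, and 0.16 over the 9 with reads. Over the 67 microRNAs the median was 0.08, with 37 above 0. The counts and medians of the list are descriptions, since loci that share a mature product or a transcript are not independent and since all genes come from the same libraries. Whether the family stands apart from other microRNAs was not tested.

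The size of change that would have passed differed strongly between members. From the authors' standard errors and the largest p-value they called, an increase of 12.9% would have been called for mir-11, 21.0% for mir-13b-1 and 20.9% for mir-13b-2. For the miR-2b loci about 30% was needed (29.7% for mir-2b-1, 29.5% for mir-2b-2), for mir-2a-1 50.9%, for mir-2a-2 52.3% and for mir-13a 68.4%. The limits are approximate, because the adjustment could also have passed a p-value slightly above the largest one called. Clearly smaller increases would not have passed. These sizes come from the authors' standard errors.

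**Figure D3:**
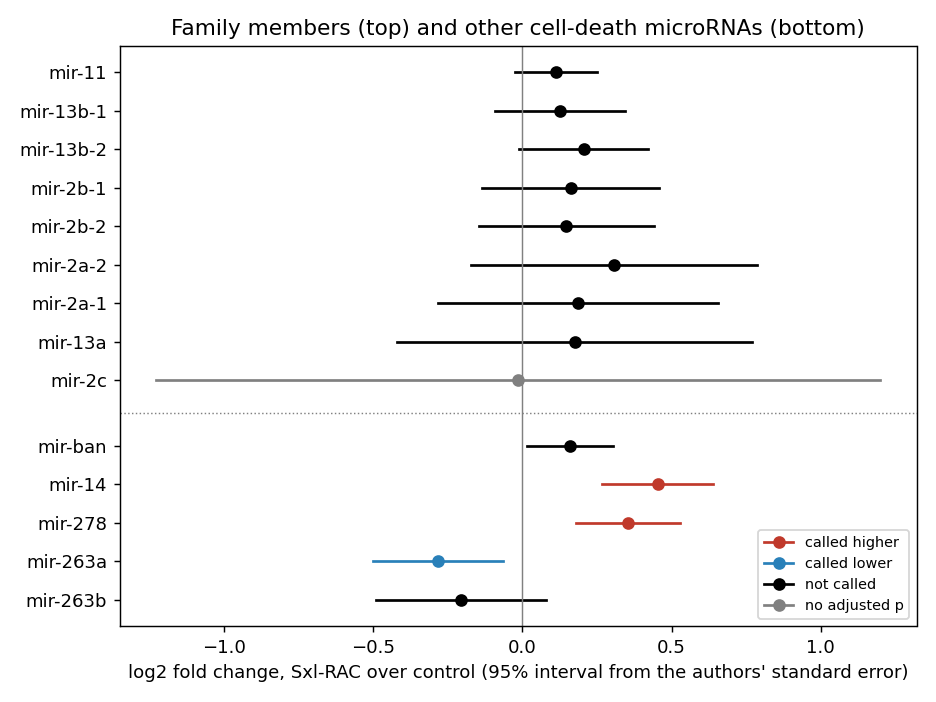
Log2 fold change, Sxl-RAC over control (horizontal axis), with the 95% interval from the authors' standard error for the 9 family members with reads (top) and 5 other cell-death microRNAs (bottom); mir-308 and the mir-6 genes are not drawn. All 9 family intervals include 0, while mir-14 (0.45) and mir-278 (0.35) were called higher and mir-263a (-0.28) lower.

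The assignment of reads to the loci of a pair was close to even. Over all 6 libraries mir-2b-1 held 1463 of the 2969 reads of its pair, 49.3% with an exact Clopper-Pearson 95% interval of 47.5 to 51.1%. Its share was 50.5%, 48.4% and 49.7% in Sxl-RAC libraries A to C and 48.3%, 49.9% and 49.9% in control libraries D to F. For mir-2a-1 it was 548 of 1132 reads, 48.4% (45.5 to 51.4%), with 52.6%, 49.7% and 41.1% in the Sxl-RAC libraries and 48.4%, 43.5% and 56.1% in the controls. Of the 12 shares 11 had an interval that included 50%. The exception was mir-2a-1 in library C, at 41.1% (33.8 to 48.7%). No allowance was made for looking at 12 intervals, so it is not read as a difference between the loci. These intervals and the limit for mir-308 cover counting error only. Output of the loci and the assignment of shared reads cannot be told apart here, and the fold changes of the loci of a pair are not separate observations.

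**Figure D4:**
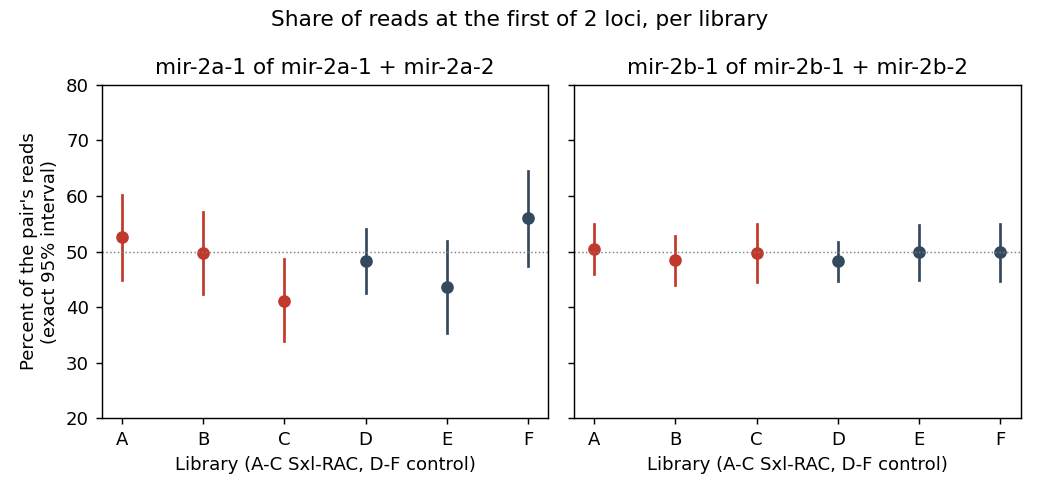
Percent of a pair's reads assigned to mir-2a-1 (left) and mir-2b-1 (right) in Sxl-RAC libraries A to C and control libraries D to F, with exact 95% binomial intervals and a dotted line at 50%; the vertical axis runs from 20 to 80%. The mir-2b-1 shares lie between 48.3 and 50.5%, and the mir-2a-1 shares between 41.1 and 56.1%.

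By genomic position 6 of the 9 members with reads fell into 2 clusters. The 3 loci in the spi intron span 775 bases and had a summed mean count of 425.1, or 3.35% of the counts of the family. Their sum was 453.1 ± 29.1 normalised reads in Sxl-RAC heads and 397.1 ± 25.0 in control heads (SD, n = 3 each), a log2 ratio of 0.19 (two-sided exact permutation p = 0.2). The 3 loci mir-13b-1, mir-13a and mir-2c span 438 bases inside an exon of lncRNA:CR45911 (chromosome 3R, 15417320 to 15420710, same strand), and had a summed mean count of 664.6 and a log2 ratio of 0.13. Each sum takes in 1 locus of a pair whose other locus lies outside the cluster, mir-2b-2 in the spi intron and mir-13b-1 in lncRNA:CR45911, so both sums and their ratios rest on how shared reads were assigned. Within the lncRNA:CR45911 cluster levels differed widely, from 8.80 counts per base for mir-13b-1 to 0.141 for mir-2c.

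The transcript lncRNA:CR45911 is itself listed. Its mean count in the authors' deposited table was 655.5, which is 98.6% of the sum of its 3 microRNAs, with neither divided by length. By annotation it belongs to the other noncoding RNAs. Its log2 fold change was 0.36 (SE 0.15, DESeq2 Wald test, unadjusted p 0.0192, adjusted p 0.784). That fold change exceeded the log2 ratio of its microRNAs by 0.23. The adjusted p-values of microRNAs matched an adjustment within microRNAs, which leaves this transcript out. Whether the authors also scaled the transcript together with microRNAs was not checked. If they did not, this difference and the 98.6% set values of different scales side by side. Whether the reads listed for the transcript are those of mir-13b-1, mir-13a and mir-2c was not tested.

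Other microRNAs that act on cell death were set beside the family, from a list of 8, with values of the authors' deposited table. Of the 5 with an adjusted p, 2 rose (background 16.4% of microRNAs) and 1 fell (background 10.4%). The gene mir-14, which represses cell death in flies, had a mean of 37410 in Sxl-RAC heads and 27321 in control heads, a log2 fold change of 0.45 (SE 0.09, DESeq2 adjusted p 2.82e-05, authors' deposited table). Its interval, 0.27 to 0.64, lay above that of mir-11, -0.02 to 0.25, although the difference between these microRNAs was not itself tested. Higher as well was mir-278, known for roles in tissue growth and energy balance, at a log2 fold change of 0.35 (DESeq2 adjusted p 0.000601). The gene mir-263a, which protects sensory bristles of the fly from apoptosis, fell by 0.28 on the log2 scale (DESeq2 adjusted p 0.0439). Its relative mir-263b was at -0.20 (SE 0.15) and did not pass. Bantam (mir-ban), the microRNA that represses hid, was at 0.16 on that scale (SE 0.07, DESeq2 adjusted p 0.0975) and did not pass either.

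The 3 mir-6 genes carry the seed of the family and are known for their role in the embryo. In adult heads they were nearly absent. Sxl-RAC libraries held 4, 3 and 5 reads of mir-6-1 and control libraries 4, 4 and 3. For mir-6-2 the reads were 1, 1 and 1 in Sxl-RAC heads and 9, 3 and 3 in control heads, and for mir-6-3 they were 0, 2 and 4 in Sxl-RAC heads and 3, 2 and 4 in control heads. These reads are not divided by the size factors, of which that of control library D, 1.83, was the largest. In the authors' deposited table the log2 fold changes were 0.41 (SE 1.05) for mir-6-1, -1.88 (SE 1.39) for mir-6-2 and -0.31 (SE 1.37) for mir-6-3. None of the mir-6 genes had an adjusted p.

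Some markers of cell types within the head differed between the arms in the authors' deposited table. Of 5 such microRNAs other than mir-263b, mir-1 of muscle was lower at a log2 fold change of -0.46 and mir-7 of photoreceptors and sensory cells lower at -0.48. Higher were mir-133 of muscle, at 0.23, and mir-8 of epithelium and fat body, at 0.29. All 4 passed the authors' test, as did 26.9% of the 67 microRNAs with an adjusted p. The muscle markers mir-1 and mir-133 went in opposite directions. The neuronal mir-124 was at -0.12 (SE 0.59), with 16, 8 and 10 reads in Sxl-RAC libraries and 26, 10 and 12 in control libraries. The part of these shifts in the values of the family was not tested.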

How the data were processed

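Small RNA libraries of adult male heads were analysed through a deposited table in which the authors had compared Sxl-RAC heads with attP2 controls, with no column per sample. Per the submitters' processing notes, Trim Galore 0.6.7, Bowtie2 2.5.3, featureCounts 2.0.8 and DESeq2 2.11.40.8 were used. The genome build, annotation, strand setting and treatment of reads that map to several loci are not given in the sources used here. Per the file headers, the deposited values are a base mean (a signal: counts divided by size factors and averaged over libraries), a log2 fold change and the standard error belonging to it, also in log2 units, a Wald statistic (a score), a p-value and an adjusted p-value. The deposited adjusted p-values equalled a Benjamini-Hochberg adjustment within microRNAs to within 0.236%, so that genes left without one by the authors' filter stay without. The direction, Sxl-RAC over control, follows the name of the deposited table and could not be checked on Sxl, which is not a row of it.

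A member was named called where the authors' adjusted p was under 0.05. Gene names and coordinates come from Ensembl release 115 (BDGP6.54), which matched 3545 of 3546 rows; whether the authors used that build is unknown. All 10 members were named, with 8 other cell-death microRNAs, 5 tissue markers and the host transcript. The members and lists were chosen with earlier results of these data known.

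The 35 distinct mean counts under 0.95 were all sums of 6 values, each the worth of 1 read in 1 library. The sign of the fold change of microRNAs with a single read placed 3 libraries in each arm. Whole reads of larger genes were sought by matching the deposited mean count, fold change and standard error with a negative binomial fit written to follow the one the authors' DESeq2 makes, within a limited range of arm shares, and 1 solution was found for each of the 57 genes tried with a mean of 2.2 or more. It was not tried for mir-13b-1, mir-13b-2 and mir-11, whose reads allow too many combinations. Exact permutation tests compared libraries of the arms. The labels do not say that samples came from separate groups of flies, so p-values measure only the spread between these libraries. Computation used Python 3.11.15, numpy 2.4.6, pandas 2.3.3, scipy 1.17.1 and numba 0.67.0. Mature sequences were not used here.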

Additional observations from a re-analysis of the deposited data

How the results depend on the processing

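The count of members called was 0 under all 8 alternatives to the authors' adjusted p: other thresholds, other adjustments and filters, 3 re-centrings of the fold changes, and the unadjusted p, which was added after the data were seen. These zeros were settled by the deposited values and are no separate support. By DESeq2's Wald test the lowest member p was 0.0619 (adjusted 0.180), and an adjusted p is never below its p. The re-centrings lowered every log2 fold change, which raised the p-value of each member with an adjusted p. The number of microRNAs called was 18 and became 11 with 1 adjustment over all genes of the table. Re-centring on summed microRNA counts removed 0.09 from every log2 value, left 0.026 for mir-11 and gave 17 calls, 7 higher and 10 lower, in place of 11 higher and 7 lower; leaving out mir-276a from that sum removed 0.06 and gave 7 higher and 9 lower. The log2 ratio of the summed family was 0.12, and 0.035 after re-centring on summed microRNA counts. All 27 re-centred values, from 9 members under 3 re-centrings, kept their sign, with a lowest adjusted p of 0.245. No sign could have changed, since the largest shift, 0.09, was smaller than the smallest value above 0, 0.11 for mir-11. Without mir-11 the ratio was 0.17.

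Leaving out each recovered library in turn, also added after the data were seen, gave log2 ratios of 0.13 to 0.34 for miR-2a, 0.11 to 0.20 for miR-2b, 0.02 to 0.27 for miR-13a and -0.81 to 0.35 for miR-2c. The values at the low end for miR-2a, miR-13a and miR-2c were those without Sxl-RAC library C. Scaling by the summed reads of recovered microRNAs, added after the data were seen, gave 0.48 for miR-2a, 0.38 for miR-2b, 0.24 for miR-2c and 0.40 for miR-13a. This scaling was at first set aside after its values were seen, because of the weight of mir-986. Without mir-986 the ratios were 0.31, 0.21, 0.068 and 0.23 in the same order. It gives no call for members, whose reads were not all recovered. No paired analysis was possible because the labels list samples of 1 group only and the recovered libraries carry no replicate numbers. Depth limits mir-2c and mir-13a most, with 88 and 315 reads over all libraries.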
